A study of Mus musculus with 10 samples.

Results

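The genes described here are 8 members of the voltage-gated sodium channel family measured in mouse left ventricle: the pore-forming alpha subunit genes Scn1a, Scn3a, Scn4a, Scn7a and Scn10a, and the accessory beta subunit genes Scn2b, Scn3b and Scn4b. They were picked by symbol from a table of 24160 transcribed units, and the family was picked because Scn4b was higher in the knockout hearts. The Scn4b difference is therefore given as a description without a test. Other genes of the family are not analysed here, so every share, ratio and ranking below is over these 8 genes alone.

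The libraries came from the posterior wall of the left ventricle of C57BL6/J mice aged 30 weeks, born from crosses between heterozygotes and kept at 24 °C. There were 6 libraries from MC4R-/- mice, which lack the melanocortin 4 receptor, and 4 from WT mice, and neither group is labelled with a treatment. The labels do not say how the allele was made, nor whether libraries came from different animals, and p-values cover only the spread between libraries. Libraries held 4145033 to 6425785 reads in the table. The targeted gene Mc4r gave 4 reads over the 6 MC4R-/- libraries and 2 over the 4 WT libraries, with at most 2 in any library, so its level in heart cannot check the labels. The cardiomyocyte marker Myh6, the main adult mouse myosin heavy chain, lay between 132071 and 179649 normalized counts in every library. Some libraries stood apart. MC4R-/- replicate 5 had the highest level of the atrial light chain Myl7, 720 normalized counts against at most 48.1 in a WT library. WT replicate 2 carried T cell transcripts, with Cd3e at 107 normalized counts. WT replicate 3 had the fewest reads.

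Voltage-gated sodium channels carry the fast inward current that starts the cardiac action potential. A large alpha subunit forms the pore and the voltage sensor. Beta subunits are small single-pass membrane proteins with an immunoglobulin-like domain that tune gating, help bring the channel to the cell surface and act in cell adhesion. In heart, Scn4b is the beta subunit gene best known for its part in late sodium current and resurgent-type gating, and it is linked to inherited arrhythmia.

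The beta subunit genes Scn2b and Scn4b are neighbours on the same strand. By RefSeq's annotation of GRCm38, which gives all gene positions here, Scn2b spans chr9:45117876-45130070 and Scn4b spans chr9:45138624-45154155, both on the plus strand, with 8553 bp between them. Scn3b lies elsewhere on the same chromosome, at chr9:40269216-40291618. The sequence before the 2 neighbouring RefSeq starts differed in composition, a contrast that was chosen for display after its values were seen. In the 250 bases upstream of the RefSeq start, Scn4b had 66% G and C and 23 CpG dinucleotides. Scn2b had 38.4% G and C and 1 CpG. The median over 32851 RefSeq promoter windows of the same length was 52.4% and 6 CpG. GENCODE starts Scn4b 229 bp and Scn2b 94 bp further upstream than RefSeq, so the windows hold transcribed sequence in that annotation. Of the 250 bases, only 21 for Scn4b and 156 for Scn2b lie outside GENCODE exons. The contrast between the windows is therefore largely one of exon against upstream sequence. The last 21 bases before each GENCODE start are shown, from RefSeq's GRCm38.p6 sequence, 5′ to 3′ on the plus strand, with CpG in capitals, at chr9:45138374-45138394 for Scn4b and chr9:45117761-45117781 for Scn2b.
Scn4b: gtCGtcCGcagCGggcaagcc
Scn2b: tgaaatccaccaaccacaata
The Scn4b stretch holds 3 CpG and the Scn2b stretch 0. Neither 250-base window held, on either strand, the TATA box TATAAA (found in 12.4% of all windows), the GATA motif AGATAA (9.99%), the T-box half-site AGGTGT (11.8%), the MCAT motif CATTCC (12.6%), the GC box GGGCGG (32.7%) or the muscle E-box CAGCTG (13%). That says only that these letters are absent from these windows.

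Scn4b had the highest level per kb of the 8 genes and was higher in MC4R-/- hearts. Normalized counts, which are reads after division by the library's size factor, ran from 875 to 1320 in the 6 MC4R-/- libraries with a median of 1218. The 4 WT libraries had 726, 728, 523 and 649. Every MC4R-/- library exceeded every WT library, and the lowest MC4R-/- library was replicate 5. Means were 1184 ± 162 (SD, n = 6) and 656.5 ± 96.1 (SD, n = 4), a log2 fold change of 0.85 on the log2(normalized count + 1) scale. Across all 14611 genes tested the median log2 fold change was -0.01. With 1 library left out at a time the Scn4b value ran from 0.74, without WT replicate 3, to 0.93, without MC4R-/- replicate 5. In bulk tissue, more cells of a type and more RNA per cell cannot be told apart.

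**Figure D1:**
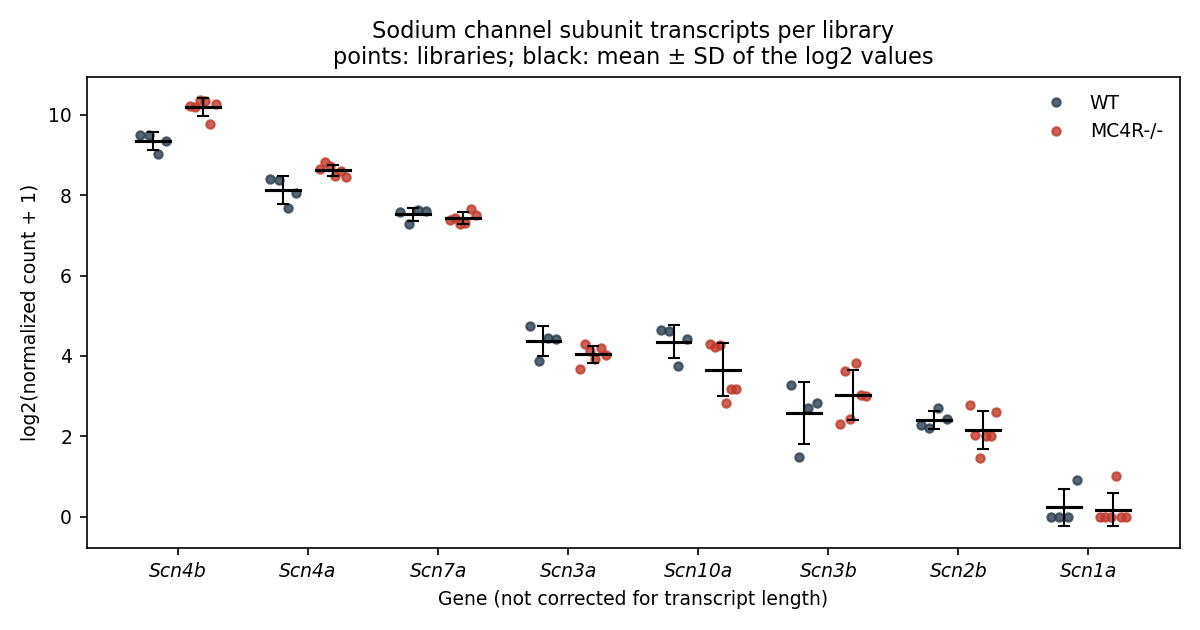
Normalized counts of the 8 subunit genes on a log2(value + 1) axis, with 1 point per library, 4 WT (dark) and 6 MC4R-/- (red), and the mean ± SD in black. Scn4b and Scn4a are the genes whose MC4R-/- points all lie above the WT points.

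The other beta subunit genes were near the limit of detection. Scn3b, a beta subunit gene expressed in heart and brain, had 3.91 to 13.2 normalized counts (median 7.08) in MC4R-/- libraries and 8.66, 1.81, 5.54 and 6.16 in WT libraries. The groups overlapped, and the log2 fold change was 0.46 ± 0.40 (SE, limma adjusted p = 0.772, 95% interval -0.36 to 1.28). It was 0.094 without WT replicate 2 and 0.69 without WT replicate 1, so single libraries set its size. Scn2b, whose protein binds the alpha subunit through a disulfide bond as that of Scn4b does, had 1.74 to 5.87 (median 3.07) in MC4R-/- libraries and 3.85, 3.61, 5.54 and 4.402 in WT libraries. These groups overlapped too, and its log2 fold change was -0.26 ± 0.39 (SE, limma adjusted p = 0.889, 95% interval -1.07 to 0.56). It ran from -0.12 without MC4R-/- replicate 3 to -0.38 without MC4R-/- replicate 1. Scn3b had 2 to 13 reads per library and Scn2b had 2 to 6. A change of the size seen for Scn4b lay inside the Scn3b interval but above the upper bound for Scn2b. On the log2(normalized count + 1) scale folds shrink at such low counts, so that bound does not exclude such a change for Scn2b. Its log2 fold change was -0.29 with 0.5 added in place of 1 and -0.13 with 5 added. In GENCODE, Scn2b and Scn3b each overlap a transcript on the opposite strand, and no source used here states the strand setting of the counting.

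Among the 5 alpha subunit genes analysed here, Scn4a (chr11:106317545-106365559, minus strand), the main sodium channel of skeletal muscle, had the highest level per kb of transcript. In GENCODE it overlaps Prr29 on the opposite strand. It had 353 to 450 normalized counts (median 395) in MC4R-/- libraries and 340, 335, 204 and 266 in WT libraries. Every MC4R-/- library lay above every WT library, although the lowest MC4R-/- value was close to the highest WT value. Means were 395.1 ± 38.1 (SD, n = 6) and 286 ± 64.5 (SD, n = 4). The log2 fold change was 0.49 ± 0.12 (SE, 95% interval 0.23 to 0.74), and its limma adjusted p of 0.0996 missed the threshold of 0.05. DESeq2 on the recovered reads gave an adjusted p of 0.0235 and edgeR gave 0.0939. The limma adjusted p was 0.0296 without WT replicate 1 and 0.017 without WT replicate 2. Without WT replicate 3, the lowest library, the log2 fold change was 0.34 with an adjusted p of 0.162. Over 24 alternatives the adjusted p ran from 0.017 to 0.394 and passed in 5. Of 12 skeletal muscle markers 7 were tested and 0 passed by limma. At an unadjusted limma p below 0.05 there was 1, a level that 9.6% of all genes tested reached. Their summed level was 10900 to 18911 normalized counts in MC4R-/- and 9705 to 13740 in WT libraries, and came mostly from Ckm and Acta1, which heart muscle also expresses. Acta1 reached 9441 in MC4R-/- replicate 3, against 1175 to 3340 in WT libraries. Among the defining markers, Myh2, Myh4 and Myog had 0 reads in all 10 libraries and Myh1 had 1, while Mylpf had at most 5.05 normalized counts and was above all WT libraries in 5 of 6 MC4R-/- libraries. The part of these transcripts in the Scn4a result was not tested.

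Scn7a (chr2:66673426-66784910, minus strand), an atypical alpha subunit gene linked to sodium sensing and found in glia and Schwann cells, came next. It had 154 to 203 normalized counts (median 169) in MC4R-/- libraries and 192, 155, 198 and 194 in WT libraries. The groups overlapped, and the log2 fold change was -0.10 ± 0.10 (SE, limma adjusted p = 0.813, 95% interval -0.31 to 0.11), an interval that does not reach the size seen for Scn4a. Schwann cell and neuronal markers summed to 291 to 381 normalized counts in MC4R-/- libraries and 326 to 385 in WT libraries. Of these markers 0 of 15 tested passed by limma. At an unadjusted limma p below 0.05 there were 3, a level that 9.6% of all genes tested reached.

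Scn10a (chr9:119608456-119719322, minus strand), a tetrodotoxin-resistant channel gene of sensory neurons with a locus linked to cardiac conduction, was low and uneven. It had 17.6 to 18.6 normalized counts in 3 MC4R-/- libraries and 6.10 to 8.10 in the other 3. Over both groups it had only 6 to 26 reads per library. WT libraries had 24.1, 23.5, 12.5 and 20.2. The groups overlapped, and the log2 fold change was -0.69 ± 0.32 (SE, limma adjusted p = 0.479, 95% interval -1.34 to -0.04). Scn3a (chr2:65457118-65567591, minus strand), an embryonic brain channel gene, had 11.7 to 18.6 (median 15.9) in MC4R-/- libraries and 26.0, 13.5, 20.8 and 20.2 in WT libraries, with a log2 fold change of -0.33 ± 0.24 (SE, limma adjusted p = 0.727). It ran from -0.20 without WT replicate 1 to -0.50 without WT replicate 2. Scn1a (chr2:66270781-66440837, minus strand), a brain channel gene, had 1 read in 1 MC4R-/- library and 1 read in 1 WT library, and 8 libraries were at 0. It did not pass the filter on low values and no fold is given.

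Of the 8 genes, 7 passed the filter of a mean of 1 normalized count over all libraries. Among the 6 tested besides Scn4b, 0 passed by limma at an adjusted p below 0.05, against 0.459% of all genes tested (0.287% higher and 0.171% lower in MC4R-/-). The same 6 gave 0 by edgeR, 1 (Scn4a) by DESeq2 and 2 at an unadjusted limma p below 0.05, which 9.6% of all genes reached. Groups did not overlap for Scn4b and Scn4a, both higher in MC4R-/-. Groups did not overlap for 2.28% of all genes tested, 1.34% higher and 0.938% lower in MC4R-/-, and the Scn4b contrast chose the family. Members were not one-directional: 3 had a positive and 4 a negative log2 fold change, with a median of -0.10.

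**Figure D2:**
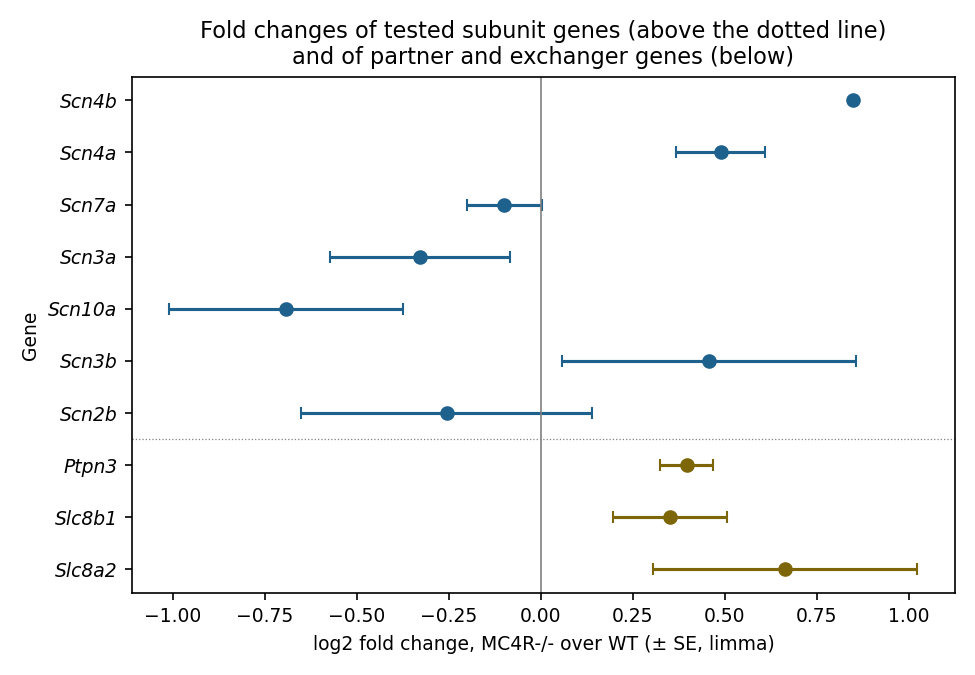
Log2 fold changes of MC4R-/- over WT (x axis, points with ± SE from limma, except Scn4b, drawn without an error) for the 7 tested subunit genes, above the dotted line, and for partner and exchanger genes below it. Scn4b lies at 0.85 and Scn4a at 0.49, while Ptpn3 at 0.40 has the narrowest error drawn among genes with values above 0.2. The genes drawn below the line all have positive values, while their lists held both directions.

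Levels of different genes can be compared only per length. Per kb of transcript, Scn4b stood at 238 normalized counts in MC4R-/- and 132 in WT hearts, Scn4a at 59.9 and 43.3, and Scn7a at 23.5 and 25.2. Each of these steps exceeded the spread between libraries. The remaining genes lay between 0.92 and 2.997 per kb, apart from Scn1a, and Scn10a (2.997 ± 0.80, SD, n = 4) and Scn3a (2.35 ± 0.60, SD, n = 4) in WT did not differ beyond their spread. Scn4b made up 98.8 ± 0.36% (SD, n = 6) of the summed beta level per kb in MC4R-/- and 98.1 ± 0.68% (SD, n = 4) in WT hearts, so the beta level followed this gene in both groups.

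Over the genes analysed here alone, the balance of the summed beta level over the summed alpha level was higher in MC4R-/- hearts. The ratio ran from 1.99 to 3.39 in MC4R-/- libraries and was 1.77, 1.91, 1.74 and 1.84 in WT libraries, and all 6 MC4R-/- libraries lay above the WT libraries. Means were 2.78 ± 0.50 (SD, n = 6) and 1.81 ± 0.08 (SD, n = 4). Because Scn4b supplies nearly all of the beta level and chose the family, this is a description. The summed alpha level was 87.1 ± 6.58 (SD, n = 6) against 73.9 ± 9.31 (SD, n = 4) normalized counts per kb, and 4 of 6 MC4R-/- libraries lay above all WT libraries. Of the level summed over the alpha genes analysed here, Scn4a made up 68.7 ± 2.45% (SD, n = 6) in MC4R-/- hearts. In WT hearts it made up 58.1 ± 6.98% (SD, n = 4). The ratio of Scn4b to Scn4a per kb was 4.00 ± 0.70 (SD, n = 6) against 3.09 ± 0.28 (SD, n = 4), with 5 of 6 MC4R-/- libraries above all WT libraries. With coding length in place of transcript length the beta to alpha ratio was 15.9 and 10.2, so its absolute size depends on the length used.

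**Figure D3:**
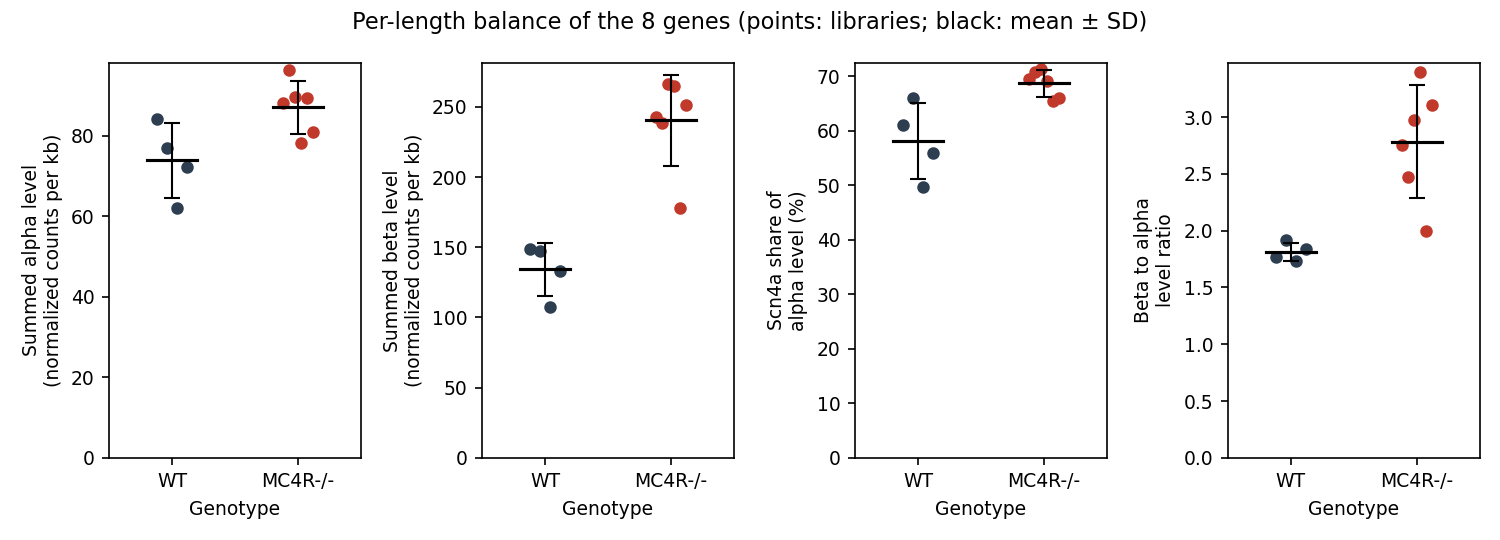
Summed alpha level, summed beta level, Scn4a share of the alpha level and beta to alpha ratio by genotype, over the genes analysed here alone. Each library is 1 point, with the mean ± SD in black, on axes from 0. The beta panel and the ratio panel show MC4R-/- libraries above all WT libraries, and the alpha panel shows overlap.

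Between libraries, apart from the genotype difference, the genes most like Scn4b were Mrpl28 (residual Pearson r = 0.959), Fabp3 (0.939), Msra (0.935) and Snapc2 (0.931), among 8994 genes over 10 libraries. For Scn4a they were Aimp2 (0.956), Cand2 (0.941), Zfp865 (0.936) and Kdm3b (0.920). For Scn3b, among 8995 genes, those reported were Iqcb1 (0.950), Jmy (0.929) and Ppp2r5e (0.923). These are the highest of all genes compared, over libraries that share depth and composition, and are given as a description. The same residual correlation was 0.54 between Scn4b and Scn4a and -0.76 between Scn4b and Scn7a. Scn4b was lowest of its group in MC4R-/- replicate 5 (875 normalized counts) and in WT replicate 3 (523). Scn7a was highest of its group in the same libraries, at 203 and 198. The part of these libraries in the correlations was not tested.

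**Figure D4:**
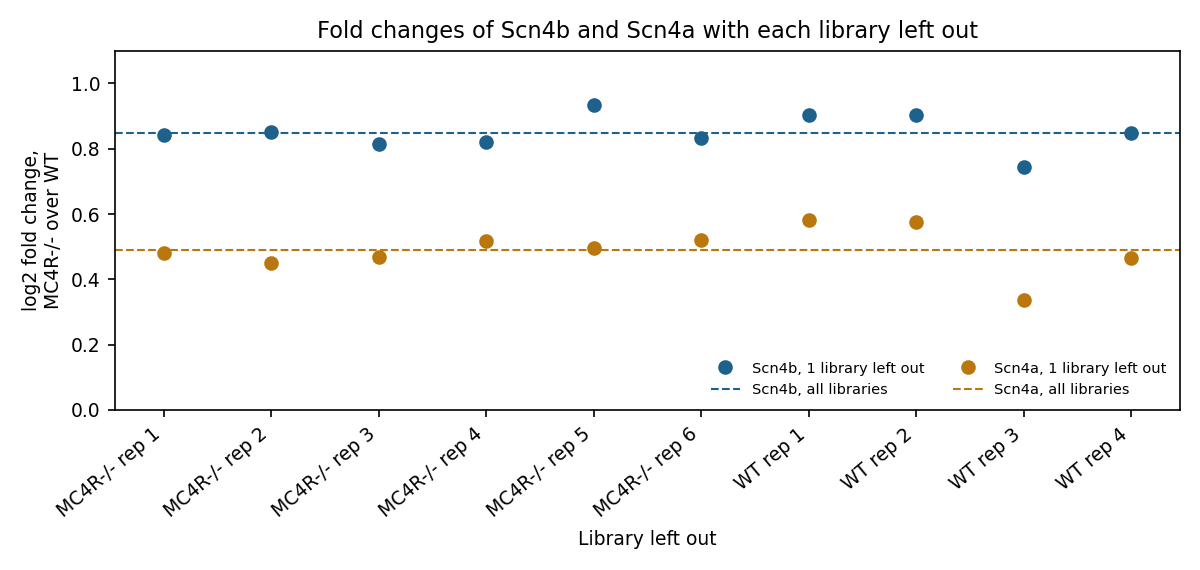
Log2 fold change of Scn4b (blue) and Scn4a (orange) with each of the 10 libraries left out in turn (x axis), with dashed lines for all libraries. Scn4b stays between 0.74 and 0.93 and Scn4a between 0.34 and 0.58, and both are lowest without WT replicate 3.

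Proteins that bind, anchor or modify sodium channels were measured through a list of partner genes. Of 28 partner genes tested, 1 rose and 0 fell by limma, against 0.459% of all genes tested called in either direction. At an unadjusted limma p below 0.05 there were 5, a level that 9.6% of all genes reached. The list's median was 0.0039 on the log2 scale. The riser was Ptpn3, a tyrosine phosphatase that binds the tail of the cardiac channel. It had 743 to 863 normalized counts (median 839) in MC4R-/- libraries and 572 to 661 in WT libraries. Its groups did not overlap, as for 1.34% of all genes tested in that direction. Its log2 fold change was 0.40 ± 0.07 (SE, limma adjusted p = 0.00846). It lost its call only in limma without trend and robust variance, at an adjusted p of 0.167.

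Sodium pumps and exchangers, which set the sodium gradient the channels use, gave 0 of 15 by limma, against 0.459% of all genes tested. At an unadjusted limma p below 0.05 there were 3, a level that 9.6% of all genes tested reached. Of the 15, 8 had a positive and 7 a negative log2 fold change, with a median of 0.017. Slc8b1, a mitochondrial sodium-calcium exchanger gene, had a log2 fold change of 0.35 ± 0.15 (SE, limma adjusted p = 0.445). Slc8a2, a plasma membrane sodium-calcium exchanger gene, had 0.66 ± 0.36 (SE, limma adjusted p = 0.594, unadjusted p = 0.0755) and was not among the 3. Of 10 tested adhesion partners of beta subunits 0 passed by limma, with 0 at an unadjusted p below 0.05.

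Conduction system markers gave 0 of 14 by limma, with 1 at an unadjusted p below 0.05, which 9.6% of all genes tested reached. That gene was Hcn4, the pacemaker channel gene, at 49.4 ± 10.9 (SD, n = 6) against 30.2 ± 14.1 (SD, n = 4) normalized counts and a difference of 0.76 on the log2 scale (adjusted p = 0.143 by limma). Hcn4 was called in 1 of 24 alternatives, limma without WT replicate 1 (adjusted p = 0.0171), and its adjusted p reached 0.412 in limma without trend and robust variance. It lay above all WT libraries in 1 of 6 MC4R-/- libraries. Within 100 kb of Scn2b and Scn4b, 4 other genes were tested, Mpzl2, Mpzl3, Jaml and Il10ra, and 0 passed by limma, with adjusted p from 0.584 to 0.989.

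Markers of other cells were set beside the members. Of all genes tested, 0.459% passed by limma in either direction and 9.6% had an unadjusted limma p below 0.05. Cardiomyocyte markers gave 0 of 12 by limma, with 3 at an unadjusted p below 0.05 and a median log2 fold change of -0.10. Of 9 fibroblast markers tested 2 rose, Lum (0.56) and Mfap5 (0.64), against 0.287% of all genes tested called higher. All 9 had a positive log2 fold change, with a median of 0.25 and 4 at an unadjusted limma p below 0.05. Their summed level was 14485 to 17340 normalized counts in MC4R-/- and 13037 to 15645 in WT libraries. Lum was called in 22 of 24 alternatives. It lost its call without WT replicate 4, at a limma adjusted p of 0.0626, and in limma without trend and robust variance, at 0.273. Mfap5 lost its call in 14 of 24 alternatives, with adjusted p from 0.00594 to 0.33 over all of them. Macrophage markers gave 0 of 10 by limma, with 5 at an unadjusted p below 0.05. Of these markers 9 had a positive and 1 a negative log2 fold change, with a median of 0.28. Their summed level did not overlap, by a narrow gap: 1710 to 2046 in MC4R-/- and 1303 to 1670 in WT libraries. Among single genes tested, groups did not overlap for 2.28%, with 1.34% higher in MC4R-/-. The part of the cell markers in the results for Scn4b and Scn4a was not tested.

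Atrial and lymphocyte transcripts were uneven between libraries. Atrial markers summed to 3596 normalized counts in MC4R-/- replicate 5, against 671 to 1529 in WT and 709 to 1215 in the other MC4R-/- libraries. That library also had the lowest Scn4b of its group. Myl7 exceeded all WT libraries in 3 of 6 MC4R-/- libraries, at 720 in replicate 5, 134 in replicate 6 and 63.0 in replicate 2. Of 6 atrial markers tested 5 had a positive and 1 a negative log2 fold change, with a median of 1.62, and 0 passed by limma. Lymphocyte markers summed to 1175 in WT replicate 2 and to 76.7 to 114 in all other libraries. Without MC4R-/- replicate 5 and WT replicate 2 the log2 fold change was 0.99 for Scn4b and 0.58 for Scn4a. For Scn4b the larger value was fixed by which libraries were dropped, since they hold its lowest MC4R-/- and its highest WT level. The part of these transcripts in the results was not tested.

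**Figure D5:**
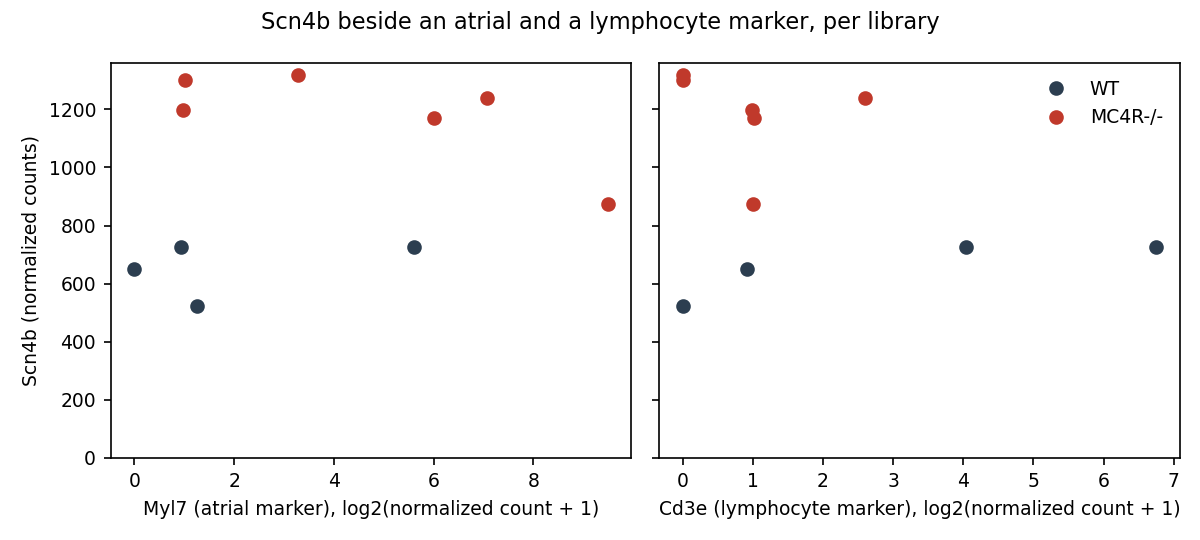
Scn4b in normalized counts (y axis, from 0) against the atrial marker Myl7 (left) and the lymphocyte marker Cd3e (right) on log2(normalized count + 1) axes, with 1 point per library, WT dark and MC4R-/- red. The red point at the far right of the Myl7 panel is MC4R-/- replicate 5, at 875 normalized counts of Scn4b.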

How the data were processed

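PolyA libraries were made from 200 ng of RNA with an integrity number above 7 with a stranded kit, per the labels' protocols. The submitters' processing notes name TopHat2 2.1.0, Cufflinks 2.2.1, Cuffnorm 2.2.1.1 and mm10. The deposited signal values are reads per gene divided by a size factor per library, not scaled by length: dividing by the value of 1 read gave whole numbers within 0.1 for 99.9862% to 100% of values. They are called normalized counts. Of 24160 units, 24107 matched a symbol and 53 did not.

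From these values, genes with a mean of at least 1 were tested as log2(value + 1) with limma 3.58.1 in R 4.3.3 (trend and robust variance, two-sided, Benjamini-Hochberg over 14611 genes, threshold 0.05), all 10 libraries in 1 fit, after tests on simulated data. edgeR 4.0.16 called 50 genes and DESeq2 1.42.0 called 122 on recovered reads, against 67. edgeR was run first with robust estimation, which called 60, and the default was taken after both counts were seen. Lengths, strands and overlaps are from GENCODE M21, gene positions and promoters from RefSeq (GRCm38.p6).

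The members and gene lists were chosen with earlier results of these data known. Named were all members, called genes of each list or up to 4 with the smallest p, the 4 most correlated genes, and tested genes within 100 kb. A planned list of other family genes, and some genes that the naming rule picked, are not reported here. Alternatives covered pseudocount, filter, normalization, variance model, replicate block and each library left out.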

Additional observations from a re-analysis of the deposited data

Results flagged for a closer look

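In a search for single libraries far from their group over 22 groups, of which chance gives about 1 in 20, Scn4b in MC4R-/- replicate 5 stood out as the lowest of its 6 libraries at 875 normalized counts. Scn7a in WT replicate 2 stood out as the lowest of its 4 libraries at 155 normalized counts.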

How the results depend on the processing

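Against 67 genes called, DESeq2 gave 122, library weights 118 and limma without trend and robust variance 0, with 1290 at an unadjusted p below 0.05. Leaving out 1 library gave 26 to 117 genes, the lowest without WT replicate 4 and the highest without WT replicate 2, and leaving out WT replicate 2 and MC4R-/- replicate 5 together gave 168. edgeR gave 50 by default and 60 with robust estimation, which was not in the plan. The robust setting was run first, and the default was taken after both counts were seen. The replicate block gave 52. Same-numbered libraries did not deviate together (r from -0.277 to -0.0750), which gives no sign of pairing by number. So few pairs cannot exclude such a pairing. All 7 tested members kept their sign in each alternative that gave a value; a filter at a mean of 10 gave none for Scn2b and Scn3b. Scn4a was called in 5 of 24. The beta to alpha ratio became 15.9 in MC4R-/- and 10.2 in WT with coding length. Among other genes, Nrcam, an adhesion gene at 0.49, reversed to -0.13 with DESeq2, -0.16 with edgeR in either setting and -0.032 with library weights. Kcnj8, a pericyte gene at 0.09, ran from -0.034 without WT replicate 2 to 0.175 over single libraries left out, and was -0.0082 with both libraries left out. None of these reversed values was called in either direction, and the cause was not tested. Depth limits Scn1a, Scn2b and Scn3b most, and also Scn3a (12 to 27 reads per library) and Scn10a (6 to 26).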
